A study of Mus musculus with 12 samples.

Results

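The Cyp2a, Cyp2c, Cyp2d and Cyp2j genes encode liver cytochrome P450 enzymes, and their transcript levels were compared in livers of germ-free (GF) and conventionalized (CV) mice of both sexes. Members were the rows of the deposited gene table whose symbol is Cyp2a, Cyp2c, Cyp2d or Cyp2j followed by a number, which left out pseudogenes. This gave 34 of 41128 genes, with 4 Cyp2a, 15 Cyp2c, 8 Cyp2d and 7 Cyp2j genes. All mice were C57BL/6 littermates born germ-free and separated at weaning on day 21. GF mice stayed in sterile isolators, and CV mice were caged on used bedding from the conventional animal facility for 3 weeks. Livers were taken at 6 weeks of age from 3 mice of each sex in each condition, giving 12 libraries of messenger RNA. No agent or altered allele distinguished the groups.

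P450 enzymes are heme proteins of the endoplasmic reticulum that insert an oxygen atom into their substrates with electrons from NADPH cytochrome P450 reductase. In mouse liver these 4 subfamilies hydroxylate steroids, epoxidize and hydroxylate arachidonic acid and other fatty acids, modify bile acids and clear drugs and dietary chemicals. Several of them are known for sex-biased expression in mouse liver, which follows the male and female patterns of growth hormone release. Each subfamily sits in a genomic cluster of duplicated genes, so that neighbours can share nearly all of their sequence.

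One library went against its label. The library labelled CV male 3 held 0 reads of Y-linked genes and a normalised read count of 2382 for Xist, the RNA of the inactive X chromosome. The other 5 male libraries held 796 to 1314 Y-linked reads and Xist at 4.68 to 21.3. The 6 female libraries held 0 or 1 Y-linked read and Xist at 1045 to 11928. The label was kept, and the counts of members, the members' sex differences and changes that passed a test, and the counts of the partner and regulator lists are given with and without this library.

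Libraries held 5993619 to 15290835 reads in genes. Mitochondrial ribosomal RNA took 9.36% to 16.4% of the reads in GF libraries and 1.39% to 6.32% in CV libraries, where CV male 2 and CV male 3 had 5.89% and 6.32% and the other 4 had 1.39% to 1.81%. Reads outside mitochondrial ribosomal RNA, Lars2, Mir6236 and predicted genes numbered 1501249 to 4539910 in GF libraries and 6593089 to 14103600 in CV libraries. Hepatocyte markers summed to normalised counts of 96079 to 443410 in GF and 365480 to 593380 in CV libraries, and 5 of the 7 measured rose in CV livers. Blood and immune markers summed to 2421 to 24110 in GF and 1896 to 3343 in CV libraries, and 4 of 7 tested fell while 2 rose. The kidney tubule markers summed to at most 18.4, with Kap, Slc12a1, Slc34a1 and Umod at 0. Of 8 enterocyte markers, Sis and Cdx1 were at 0, and the pair that was tested, Fabp2 and Anpep, rose. In whole liver, fewer cells of a type and less RNA per cell cannot be told apart.

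Promoter sequences are shown for the paralogs on which the sex comparison turned, which had opposite or unequal sex differences. Within a subfamily, pairs of these shared from 63.2% (Cyp2c40 and Cyp2c67) to 98% (Cyp2a4 and Cyp2a5) of 250 bases before their start sites. For Cyp2d9 and Cyp2d10 it was 83.6%. Bases with no partner count as not shared in these percentages. Cyp2c40 and Cyp2c67 were the same at 158 of 170 aligned bases, while 80 of the 250 had no partner. The windows run from 250 bases upstream of the RefSeq start to that start, and stop earlier where the GENCODE gene begins first (RefSeq promoter table, GRCm38.p6, transcribed strand). RefSeq windows were found for 29 of the 34 members. Cyp2a4 (chr7:26306942-26307168, + strand) and Cyp2a5 (chr7:26835089-26835304, + strand) were the same at 245 of 249 aligned bases over the whole windows. Capitals mark the bases that differ or have no partner.
Cyp2a4: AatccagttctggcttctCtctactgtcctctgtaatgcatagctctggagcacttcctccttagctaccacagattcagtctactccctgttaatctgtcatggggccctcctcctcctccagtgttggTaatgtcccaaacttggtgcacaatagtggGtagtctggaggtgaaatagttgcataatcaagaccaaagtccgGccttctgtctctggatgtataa
Cyp2a5: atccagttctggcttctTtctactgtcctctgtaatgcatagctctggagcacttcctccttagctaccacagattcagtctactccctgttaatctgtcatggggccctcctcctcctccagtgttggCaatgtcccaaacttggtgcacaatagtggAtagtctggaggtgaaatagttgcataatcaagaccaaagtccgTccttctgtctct

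Cyp2d9 (chr15:82452127-82452376, + strand) and Cyp2d10 (chr15:82407196-82407444, − strand) were the same at 209 of 246 aligned bases, and capitals again mark the bases that differ or have no partner. The RefSeq start of Cyp2d9 lies 18940 bases inside the longer GENCODE gene.
Cyp2d9: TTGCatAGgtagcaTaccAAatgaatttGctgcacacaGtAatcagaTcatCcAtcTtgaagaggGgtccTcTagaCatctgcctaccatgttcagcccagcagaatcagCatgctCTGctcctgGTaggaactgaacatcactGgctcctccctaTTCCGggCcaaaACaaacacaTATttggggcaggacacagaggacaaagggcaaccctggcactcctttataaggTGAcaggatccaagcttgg
Cyp2d10: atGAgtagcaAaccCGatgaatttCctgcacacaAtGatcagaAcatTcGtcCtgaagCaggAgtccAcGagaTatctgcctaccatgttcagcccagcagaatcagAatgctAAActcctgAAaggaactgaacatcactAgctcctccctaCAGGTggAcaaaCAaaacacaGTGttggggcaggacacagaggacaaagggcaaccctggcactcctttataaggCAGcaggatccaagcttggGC

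Cyp2c67, Cyp2c68, Cyp2c40 and Cyp2c69 lie next to each other on the − strand of chromosome 19, in that order by coordinate. Their windows are chr19:39649052-39649292 for Cyp2c67, chr19:39741102-39741351 for Cyp2c68, chr19:39812815-39813064 for Cyp2c40 and chr19:39886800-39887019 for Cyp2c69. Capitals mark GTTAAT, letters from one arm of the site of the hepatocyte factor HNF1, and CAAAGT, letters from the core of an HNF4A site, on either strand.
Cyp2c67: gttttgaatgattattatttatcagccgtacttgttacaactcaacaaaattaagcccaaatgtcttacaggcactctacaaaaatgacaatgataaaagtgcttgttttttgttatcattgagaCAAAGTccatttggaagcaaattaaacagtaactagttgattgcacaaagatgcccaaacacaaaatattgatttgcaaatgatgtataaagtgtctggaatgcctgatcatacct
Cyp2c68: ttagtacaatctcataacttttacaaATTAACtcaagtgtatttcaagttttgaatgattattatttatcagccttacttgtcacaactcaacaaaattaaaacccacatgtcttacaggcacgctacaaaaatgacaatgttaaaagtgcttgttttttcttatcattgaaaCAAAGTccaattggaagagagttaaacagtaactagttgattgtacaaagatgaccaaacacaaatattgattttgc
Cyp2c40: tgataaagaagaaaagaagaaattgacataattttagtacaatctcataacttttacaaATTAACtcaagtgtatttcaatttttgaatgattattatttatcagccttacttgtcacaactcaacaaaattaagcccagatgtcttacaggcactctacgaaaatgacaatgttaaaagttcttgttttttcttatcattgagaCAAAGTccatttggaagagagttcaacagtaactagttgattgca
Cyp2c69: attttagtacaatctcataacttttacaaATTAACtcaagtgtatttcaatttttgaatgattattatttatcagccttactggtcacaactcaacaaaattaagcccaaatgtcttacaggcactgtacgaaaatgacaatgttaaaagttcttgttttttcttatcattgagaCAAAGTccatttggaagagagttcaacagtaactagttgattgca

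GTTAAT was present in the windows of Cyp2c68, Cyp2c40 and Cyp2c69. The stretch that holds it there lies upstream of the first base of the Cyp2c67 window, so that its presence before Cyp2c67 was not examined. CAAAGT was present in all 4 windows. GTTAAT was found in 6 of 31 member windows and in 6.43% of 32851 RefSeq windows of the same length, and CAAAGT in 18 of 31 and in 12.6%. TTCNNNGAA, the motif of STAT5, was found in 2 of 31 member windows and in 7.02% of all windows. The 31 windows belong to 29 members and include near-identical paralogs, so that they are not independent. The letters were searched on both strands, and a match is a description of the window. Cyp2c40 and Cyp2c69 were the same at 217 of 220 aligned promoter bases, and Cyp2c69 and Cyp2c67 at 186 of 200. In these pairs 30 and 50 of the 250 bases had no partner.

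Likeness between these paralogs extends into the transcripts and limits how far reads can be assigned. The Cyp2a4 and Cyp2a5 transcripts were identical at 98.27% of aligned bases, the 4 Cyp2c neighbours at 96.43% to 98.03%, and Cyp2d9 and Cyp2d10 at 91.63%. Of all 50-base windows of the Cyp2c40 transcript, 72.1% occurred in another gene, as did 54.8% for Cyp2c69, 52.8% for Cyp2c67, 43.3% for Cyp2c68, 40.8% for Cyp2a5, 40.5% for Cyp2d10, 38.8% for Cyp2a4 and 29.0% for Cyp2d9. None of Cyp2c23, Cyp2c70 or Cyp2j9 was shared at this length. Counts of the paralogs are therefore uncertain to the extent that shared reads were split or dropped. Cyp2a4 also overlaps the antisense gene Gm42375, and Cyp2d9 overlaps the pseudogenes Gm46501 and Gm49421, and the strand setting of the counting was not stated.

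A member was tested when its mean normalised count over the 12 libraries was at least 10, which 24 of the 34 members reached (3 Cyp2a, 13 Cyp2c, 5 Cyp2d and 3 Cyp2j). Cyp2c66, Cyp2j11 and Cyp2j12 had no read in any library, where 3 reads per library was the limit that a count of 0 allows. Cyp2c65, Cyp2j13, Cyp2d34, Cyp2a22, Cyp2j8, Cyp2d12 and Cyp2d11 had 1 to 75 reads in all. Differences are given as log2 changes of the value plus 1 with their SE, and a member is said to rise or fall when limma's adjusted p over 11782 genes was under 0.05. Members that passed are not all members, since a gene high in a single group could pass through that group.

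By sex, the Cyp2a subfamily held the largest difference among the tested members. Cyp2a4, a steroid hydroxylase (ENSMUSG00000074254, chr7:26307169-26315088), had normalised read counts of 52.8, 34.6 and 25.5 in GF males and 1339, 1341 and 692 in GF females. In CV livers it stood at 17.7, 4.77 and 2070 in the libraries labelled male and at 3754, 5372 and 6429 in females. The 5 other male libraries lay below all 6 female libraries, and CV male 3 lay between the GF and the CV females. Cyp2a4 was lower in males by a log2 difference of −5.62 ± 0.93 (SE, n = 6 per sex, limma adjusted p = 0.00437), or 49.2-fold, and by −6.89 ± 0.30 (adjusted p = 5.02e-11), or 119-fold, without CV male 3.

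Cyp2a5, the mouse coumarin hydroxylase (ENSMUSG00000005547, chr7:26835305-26843548), did not follow its near-identical neighbour. It had values of 3284, 2586 and 2214 in GF males, 1159, 2091 and 4171 in GF females, 8504, 6130 and 6508 in CV males and 4233, 3600 and 2192 in CV females. The sexes overlapped in GF livers. All 3 libraries labelled CV male, with CV male 3 at 6508, lay above all 3 CV females, as in 774 of 11782 genes tested. The difference over both conditions, 0.71 ± 0.28 (limma adjusted p = 0.343), did not pass the test. For Cyp2a12, a further steroid hydroxylase, the sex difference was 0.41 ± 0.19 (adjusted p = 0.446).

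**Figure D1:**
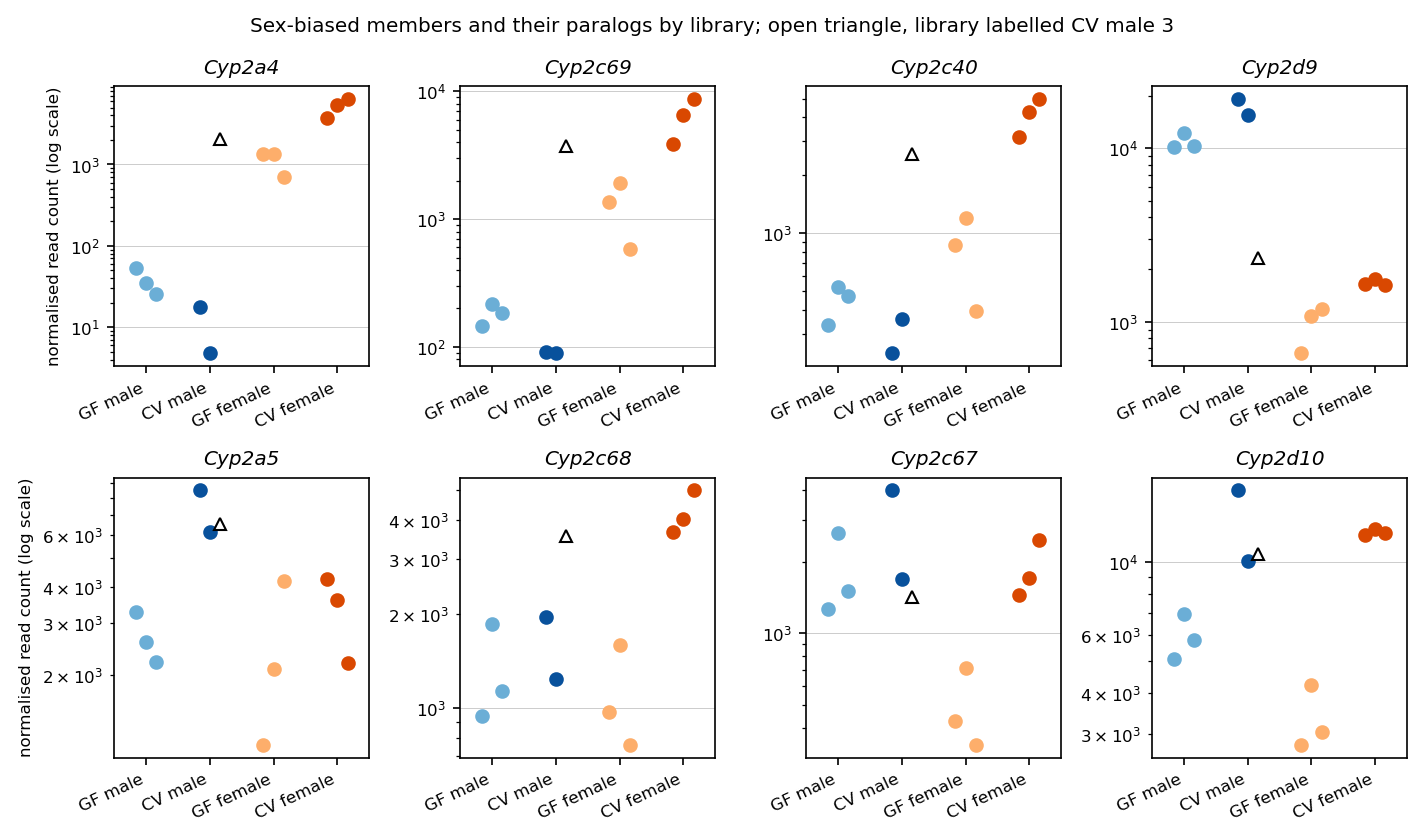
Normalised read count of each library on a log axis for 4 members with sex differences (upper row) and 4 of their close paralogs (lower row). Each point is 1 mouse, and the open triangle is the library labelled CV male 3, which had Cyp2a4 at 2070 where the other CV males had 17.7 and 4.77.

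In the Cyp2c subfamily the largest sex difference was in Cyp2c69 (ENSMUSG00000092008, chr19:39842814-39886799). Its values were 147, 216 and 184 in GF males and 90.6, 89.0 and 3749 in the libraries labelled CV male, the last being CV male 3. They were 1356, 1928 and 581 in GF females and 3844, 6497 and 8762 in CV females. The 5 other male libraries again lay below all 6 female libraries. Cyp2c69 was lower in males by −3.47 ± 0.68 (limma adjusted p = 0.0125), or 11.1-fold, and by −4.36 ± 0.28 (adjusted p = 9.80e-09), or 20.5-fold, without CV male 3. With 2 count models, edgeR and DESeq2, and all libraries kept, its adjusted p was 0.0784 and 0.0877.

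Cyp2c40 (ENSMUSG00000025004, chr19:39767071-39812814), an arachidonic acid hydroxylase, stood beside it on the chromosome and had the next smallest adjusted p in the subfamily. Its values were 332, 526 and 472 in GF males, 237, 359 and 2568 in the libraries labelled CV male, 863, 1197 and 395 in GF females and 3152, 4272 and 5009 in CV females. One GF female, at 395, lay within the male range. The difference was −1.76 ± 0.44 (limma adjusted p = 0.0728) with all libraries, and Cyp2c40 was lower in males by −2.28 ± 0.27 (adjusted p = 3.19e-05) without CV male 3.

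Without CV male 3, another pair of Cyp2c genes was also lower in males and 1 was higher. Cyp2c39, known as a retinoic acid hydroxylase, differed by −2.08 ± 0.48 (limma adjusted p = 0.0294), at levels of 1.33 to 77.2 over all libraries, and its neighbour Cyp2c38 by −1.11 ± 0.23 (adjusted p = 0.0145). With all libraries these were −1.60 (adjusted p = 0.245) and −0.93 (adjusted p = 0.0943). Cyp2c67 (ENSMUSG00000062624, chr19:39608842-39649051) was higher in males, by 1.18 ± 0.28 (adjusted p = 0.0366), against 1.04 (adjusted p = 0.0999) with all libraries. Its values were 1267, 2632 and 1512 in GF males and 430, 713 and 341 in GF females. The GF males lay above the GF females without overlap, as in 1207 of 11782 genes tested. Values in CV livers were 3979, 1686 and 1417 in the libraries labelled male and 1445, 1703 and 2465 in females, which overlapped.

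**Figure D2:**
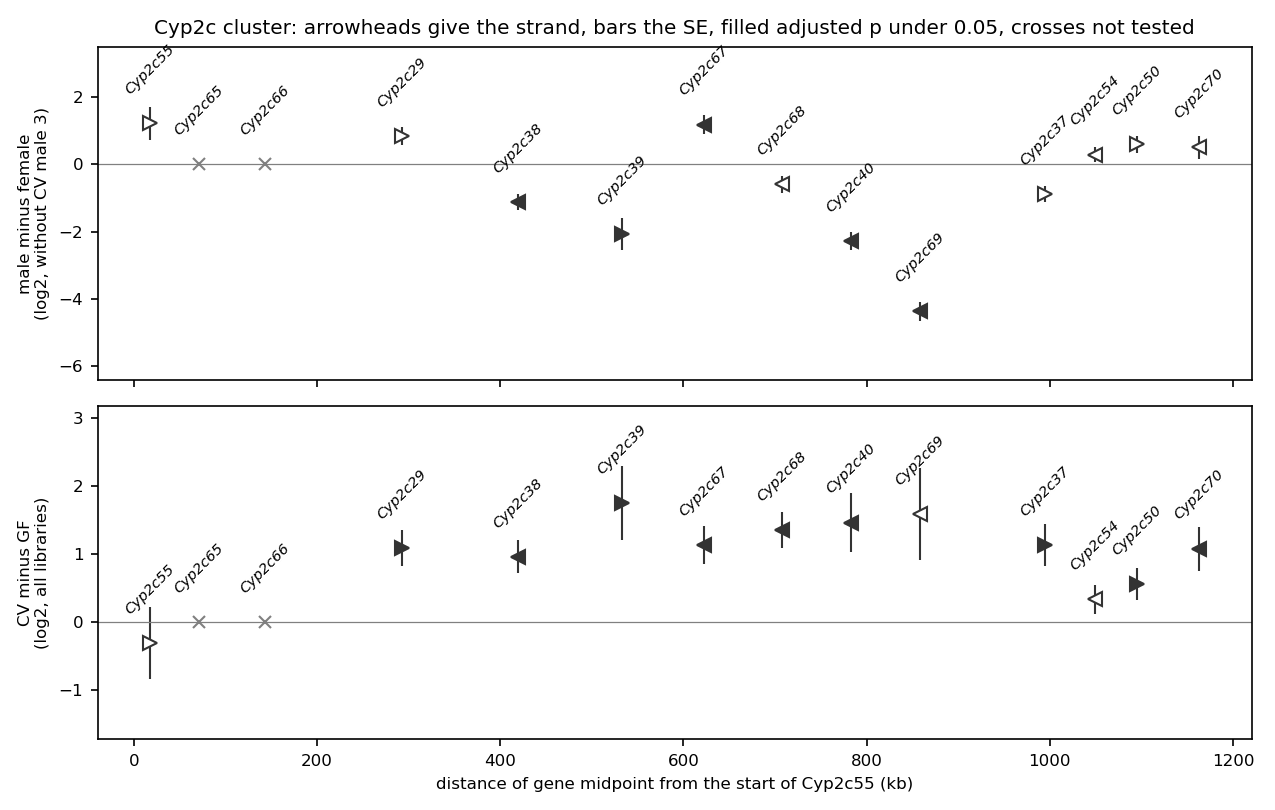
Log2 differences of the Cyp2c genes, except Cyp2c23, by position along the chromosome 19 cluster, as distance in kb from the start of Cyp2c55, with the sex difference above and the condition difference below. The sex difference leaves out the library labelled CV male 3 and the condition difference uses all libraries. Bars are the SE, and by sex Cyp2c67 at 1.18 and Cyp2c69 at −4.36 (1.04 and −3.47 with all libraries) lie at the ends of a run of 4 neighbours transcribed in the same direction.

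Cyp2c68 (ENSMUSG00000074882, chr19:39688834-39741054) lies between Cyp2c67 and Cyp2c40 and showed no sex difference that passed the test, with −0.39 ± 0.27 (limma adjusted p = 0.636) and −0.59 ± 0.25 (adjusted p = 0.397) without CV male 3. Its ratio of reads to those of Cyp2c67 in the same library, which depends on no scaling between libraries, nevertheless fell into separate ranges. The ratio was 0.746, 0.706 and 0.751 in GF males and 2.26, 2.24 and 2.24 in GF females. In CV livers it was 0.492 and 0.735 in males 1 and 2 and 2.55, 2.37 and 2.03 in females, and CV male 3 had 2.51. The ratio of Cyp2c69 to Cyp2c67 was 0.0228 to 0.122 in the 5 other male libraries, 1.70 to 3.82 in females and 2.65 in CV male 3. These ratios were chosen after the values were seen and are given without a test.

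In the Cyp2d subfamily 1 of the 5 tested members passed the sex comparison, and it was higher in males. This member, Cyp2d9, a male-biased steroid hydroxylase (ENSMUSG00000068086, chr15:82433437-82456845), had values of 10158, 12185 and 10293 in GF males and 657, 1083 and 1177 in GF females. In CV livers it had 19338, 15577 and 2324 in the libraries labelled male and 1658, 1769 and 1624 in females. The 5 other male libraries lay above all 6 females, and CV male 3, at 2324, was closer to the females. Cyp2d9 was higher in males by 2.96 ± 0.39 (limma adjusted p = 0.000665), or 7.79-fold, and by 3.44 ± 0.22 (adjusted p = 6.91e-09), or 10.9-fold, without CV male 3.

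Its paralog Cyp2d10 differed between the sexes by 0.41 ± 0.22 (limma adjusted p = 0.519) and Cyp2d40 by 0.38 ± 0.19 (adjusted p = 0.503). The ratio of Cyp2d9 to Cyp2d10 reads was 1.17 to 2.01 in the 5 other male libraries, 0.132 to 0.389 in females and 0.220 in CV male 3. The ratio of Cyp2a4 to Cyp2a5 reads was 0.000778 to 0.0161 in those males, 0.166 to 2.93 in females and 0.318 in CV male 3. In each of these pairs the male and female ranges were apart, and CV male 3 fell within the range of all females. It lay outside the range of the CV females alone, on the side of the males, in each pair. Those females had 0.132 to 0.140 for Cyp2d9 to Cyp2d10 and 0.887 to 2.93 for Cyp2a4 to Cyp2a5.

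**Figure D3:**
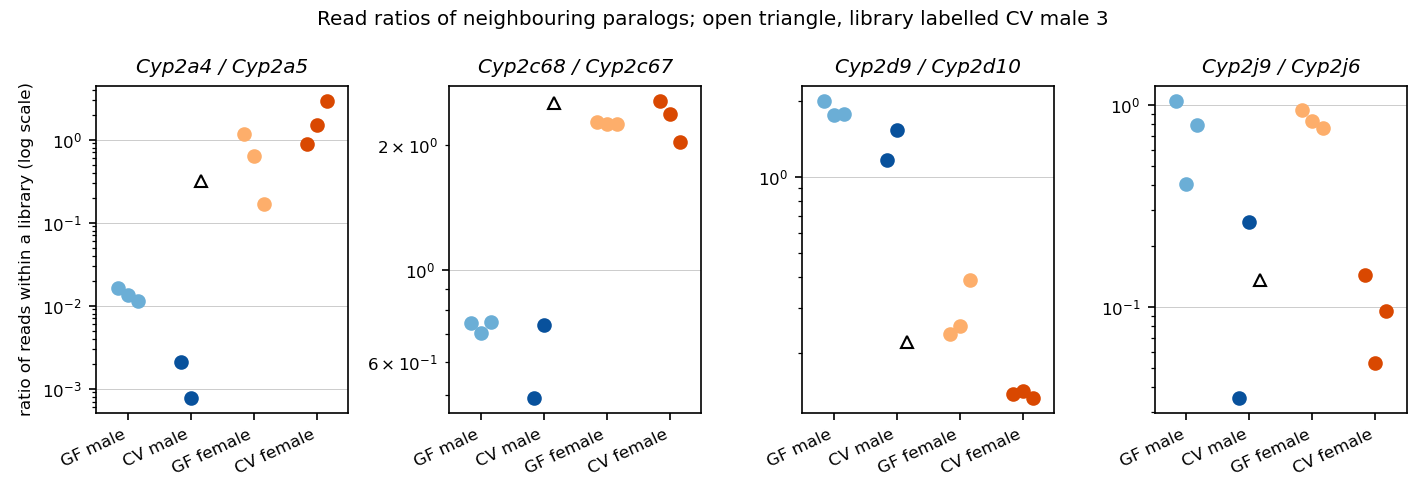
Ratio of reads of one member to reads of a paralog within each library, on a log axis, by group. The first 3 ratios separate the sexes apart from CV male 3 (open triangle), and the ratio of Cyp2j9 to Cyp2j6 was 0.406 to 1.05 in GF and 0.0355 to 0.264 in CV libraries.

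None of the 3 Cyp2j genes tested passed the sex comparison by limma, with or without CV male 3, and with all libraries 0 had an unadjusted p under 0.05 by limma and 0 were called by edgeR or DESeq2. Cyp2j6, which is expressed in many tissues, differed by 0.40 ± 0.20 (limma adjusted p = 0.487) and Cyp2j9 by 0.39 ± 0.30 (adjusted p = 0.695). Cyp2j6 ranged from 234 in a GF female to 660 in CV male 1.

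Over both conditions 1 member was higher in males and 2 were lower, against a background of 0.73% and 0.433% of all genes tested. Without CV male 3 there were 2 and 5, against 1.06% and 0.662%. In the 5 other male libraries against the 6 female libraries, Cyp2d9 lay above and Cyp2a4 and Cyp2c69 below with no overlap, as did 0.654% and 0.484% of all genes tested.

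Within GF livers, which hold no doubtful library, Cyp2d9 (3.52 ± 0.55, limma adjusted p = 0.00326) and Cyp2c67 (1.86 ± 0.39, adjusted p = 0.0250) were higher in males, against a background of 1.23% higher and 0.399% lower. Cyp2a4 stood at −4.86 ± 1.31 (adjusted p = 0.0704) in that comparison, where the spread was estimated over all groups, the one with CV male 3 included. Without that library Cyp2a4 (adjusted p = 4.02e-07), Cyp2c69 (−2.67, adjusted p = 0.00042) and Cyp2c38 (−1.35, adjusted p = 0.0304) were lower in GF males, against 1.67% higher and 0.62% lower.

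Within CV livers 0 of 24 members passed limma with all libraries, where 6 had an unadjusted p under 0.05 and edgeR and DESeq2 each called 1, Cyp2d9. The background was 0.0509% higher and 0.00849% lower. Without CV male 3, Cyp2d9 (3.37 ± 0.32, limma adjusted p = 4.22e-06) was higher in males, and Cyp2a4 (−8.93 ± 0.44, adjusted p = 1.86e-09), Cyp2c69 (−6.05 ± 0.42, adjusted p = 7.00e-08) and Cyp2c40 (−3.80 ± 0.40, adjusted p = 1.23e-05) were lower, against 0.373% and 0.28%. The male side of that comparison then held 2 libraries.

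**Figure D4:**
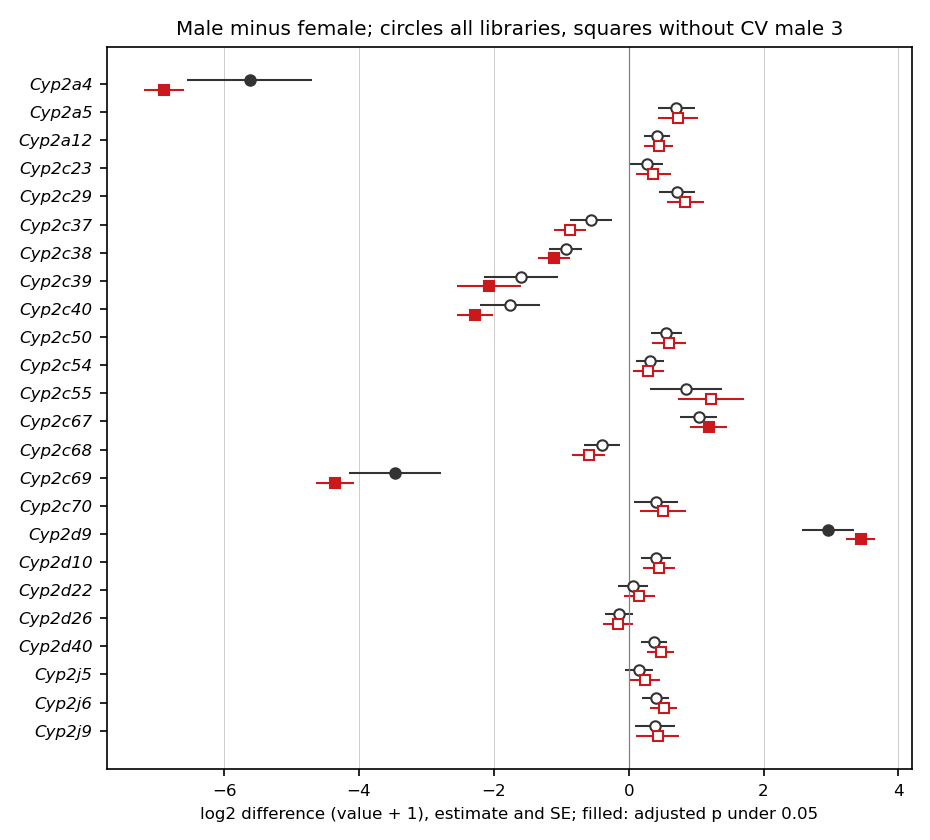
Male minus female log2 difference of each tested member with its SE, over both conditions, with all libraries (circles) and without the library labelled CV male 3 (squares). Filled symbols have limma adjusted p under 0.05, and Cyp2a4, Cyp2c69 and Cyp2d9 are filled in both fits.

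Most tested members were higher in CV than in GF livers relative to the median change of all genes. Over both sexes 16 of the 24 tested members were higher in CV livers and 1 was lower, where 32.3% of all genes tested were higher and 28.7% lower. The median log2 change was 1.10 over the tested members and 0.07 over all genes. The members that rose did so by 0.56 (Cyp2c50) to 1.75 (Cyp2c39), and 10 of 13 Cyp2c, 2 of 3 Cyp2a, 3 of 5 Cyp2d and 1 of 3 Cyp2j genes were among them. Without CV male 3, 18 were higher and 1 lower, against 32.1% and 28.1%. In each of Cyp2a12, Cyp2d10, Cyp2d26, Cyp2d40 and Cyp2j5 all 6 CV libraries lay above all 6 GF libraries, as they did in 15.6% of all genes tested, and in Cyp2j9 all 6 lay below, as in 15.7%.

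Among the Cyp2a genes, Cyp2a12 had 2664, 3654 and 2677 in GF males and 1728, 2109 and 1880 in GF females. It had 7843, 4536 and 5252 in CV males and 5358, 4992 and 4748 in CV females, a rise of 1.18 ± 0.19 (limma adjusted p = 8.31e-05) or 2.26-fold. Cyp2a5 rose by 0.98 ± 0.28 (adjusted p = 0.00582), and of the sexes taken alone the rise passed the test in males (1.39 ± 0.39, adjusted p = 0.0158) and not in females (0.57 ± 0.39, adjusted p = 0.223). The difference between those 2 changes, 0.82 ± 0.55, did not pass (adjusted p = 0.526). Cyp2a4 differed by 1.47 ± 0.93 (adjusted p = 0.178) over both sexes.

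Among the Cyp2c genes, Cyp2c68 and Cyp2c23 had the smallest adjusted p. Cyp2c68 had 945, 1859 and 1135 in GF males, 974, 1596 and 763 in GF females, 1960, 1239 and 3562 in the libraries labelled CV male and 3681, 4040 and 4997 in CV females. The CV females lay above all GF libraries as did CV male 1 at 1960 and CV male 3 at 3562, whereas CV male 2 at 1239 lay within the GF range, and over both sexes the rise was 1.35 ± 0.27 (limma adjusted p = 0.000385). Cyp2c23, an arachidonic acid epoxygenase that lies 3818 kb from the rest of the cluster, had 1214, 1753 and 1044 in GF males and 746, 1072 and 523 in GF females. In CV livers it had 3606, 1399 and 1473 in males and 2224, 2272 and 2588 in females, a rise of 1.12 ± 0.25 (adjusted p = 0.0011). Cyp2c70, which makes muricholic acids from chenodeoxycholic acid, rose by 1.08 ± 0.32 (adjusted p = 0.00861). Cyp2c54, Cyp2c55 and Cyp2c69 did not pass, with 0.33, −0.31 and 1.59, and Cyp2c69 passed without CV male 3 at 0.70 (adjusted p = 0.0422). That value averages −0.995 in males and 2.39 in females, so that it is not a rise in both sexes.

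Cyp2d10 stood at a mean level of 7512 ± 1396 normalised reads per kb of transcript in CV livers (SD, n = 6) and of 2813 ± 981 in GF livers. Its values were 5062, 6944 and 5789 in GF males, 2772, 4224 and 3029 in GF females, 16605, 10095 and 10580 in CV males and 12121, 12612 and 12270 in CV females, a rise of 1.48 ± 0.22 (limma adjusted p = 2.96e-05) or 2.78-fold. Cyp2d40 (ENSMUSG00000068083, chr15:82759833-82764183) had 196, 260 and 326 in GF males, 113, 114 and 165 in GF females, 677, 531 and 395 in CV males and 491, 632 and 737 in CV females, a rise of 1.63 ± 0.19 (adjusted p = 4.78e-06) or 3.10-fold. Cyp2d9 and Cyp2d22 did not pass (0.27 ± 0.39 and 0.21 ± 0.22), but without CV male 3 Cyp2d9 rose by 0.76 ± 0.22 (adjusted p = 0.00631).

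Cyp2j9 was the one tested member that fell. This arachidonic acid hydroxylase, known from brain (ENSMUSG00000015224, chr4:96568429-96591578), had 364, 137 and 225 in GF males and 220, 197 and 217 in GF females. It had 23.4, 89.0 and 39.1 in CV males and 35.8, 18.8 and 27.7 in CV females, and the highest CV value, 89.0, was below the lowest GF value, 137. Cyp2j9 was lower in CV livers by −2.64 ± 0.30 (limma adjusted p = 2.93e-06), or 6.24-fold, and by −2.34 in males and −2.94 in females alone. Its neighbour Cyp2j5, an arachidonic acid epoxygenase of liver and kidney, had 1298, 1705 and 1521 in GF males, 1052, 1431 and 863 in GF females, 3991, 1999 and 1963 in CV males and 3119, 2655 and 2584 in CV females. It rose by 1.04 ± 0.21 (adjusted p = 0.000471). Cyp2j6 had 348, 338 and 285 in GF males, 234, 237 and 284 in GF females, 660, 337 and 286 in CV males and 249, 359 and 290 in CV females, and its change was 0.27 ± 0.20 (adjusted p = 0.246).

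These condition differences were also computed with CV male 3 left out. They were then 1.21 for Cyp2a12, 1.01 for Cyp2a5, 1.15 for Cyp2c68, 1.22 for Cyp2c23, 1.18 for Cyp2c70, 1.52 for Cyp2d10, 1.73 for Cyp2d40, 1.13 for Cyp2j5 and −2.60 for Cyp2j9, and each still passed limma, with adjusted p of at most 0.00800.

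**Figure D5:**
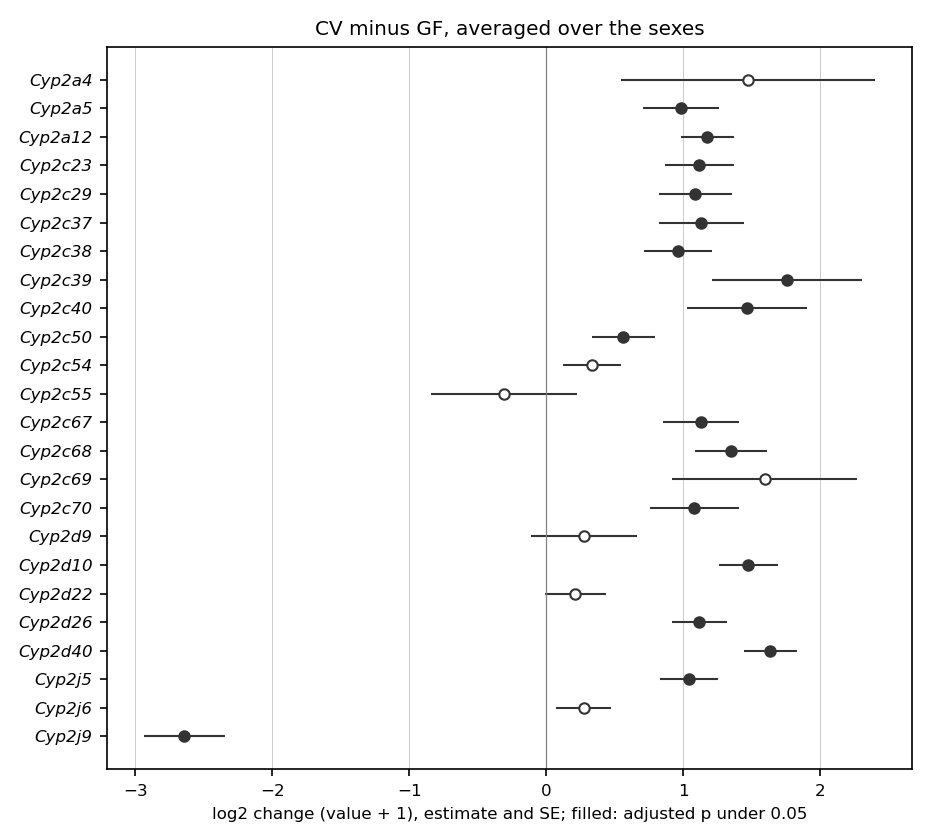
CV minus GF log2 change of each tested member with its SE, averaged over the sexes. Filled circles have limma adjusted p under 0.05, and 16 members lie between 0.56 and 1.75 while Cyp2j9 lies at −2.64. In another scaling Cyp2c50 turned negative.

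The condition difference moved with library composition. In the 4 scalings compared, the median change of all genes ran from −0.55 to 0.62. A scaling shifts every gene of a library alike, so that the order of members against that median is set by construction and only the sign and the count of calls can turn. Scaled to the reads outside mitochondrial ribosomal RNA, Lars2, Mir6236 and predicted genes, 7 members were higher and 1, Cyp2j9, was lower. Of all genes 13.6% were higher and 48.4% lower in that scaling. Of the 16 members that rose in the main fit, 15 kept a positive change while that of Cyp2c50 turned negative. With the mitochondrial ribosomal RNA share as a covariate 0 of 24 members passed limma, 4 had an unadjusted p under 0.05, and 0 of 11782 genes passed. That share did not overlap between GF and CV libraries, so that it and the condition cannot be told apart.

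Taken by sex, 6 members were higher and 1 lower in CV males, against 14.1% and 15.4% of all genes, and 13 were higher and 1 lower in CV females, against 29.8% and 26.0%. Without CV male 3 these were 5 and 2 in males, against 12.1% and 13.1%, and 16 and 1 in females, against 30.0% and 26.1%. In females the changes that passed ran from −2.94 (Cyp2j9) to 2.45 (Cyp2c40). Of the 13 Cyp2c genes tested, 1 was higher in CV males and 8 in CV females, or 1 and 9 without CV male 3. Cyp2c40 changed by 0.47 in males, and by −0.58 without CV male 3, and neither passed.

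Whether the change differed between the sexes was tested as an interaction. With all libraries 0 of 24 members passed by limma, against 0.0% of all genes, while 5 members had an unadjusted p under 0.05 and edgeR and DESeq2 called 0. The values for the smallest adjusted p in each subfamily were 0.82 ± 0.55 for Cyp2a5 (limma adjusted p = 0.526), −1.65 ± 0.56 for Cyp2c67 (0.417), −1.21 ± 0.39 for Cyp2d40 (0.417) and −0.61 ± 0.42 for Cyp2j5 (0.534). Cyp2c67 rose by 1.95 ± 0.39 in females (adjusted p = 0.000621), and its change was 0.30 ± 0.39 in males (adjusted p = 0.583).

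With CV male 3 left out the same terms were 0.87, −1.35, −1.01 and −0.43 and again did not pass, and 2 of 24 members passed the interaction, against 0.034% of all genes. Cyp2a4 fell in CV males by 1.83 on the log2 scale (limma adjusted p = 0.009) and rose by 2.23 in CV females (adjusted p = 0.000216). Cyp2c69 changed by −0.995 ± 0.421 in males (adjusted p = 0.0912) and rose by 2.39 in females (adjusted p = 8.15e-05). The male changes rest on the libraries CV male 1 and 2. Cyp2a4 stood there at 17.7 and 4.77 against 25.5 to 52.8 in GF males, and Cyp2c69 at 90.6 and 89.0 against 147 to 216. The reads behind these values overlapped. Cyp2a4 had 34 and 6 reads against 18 to 59, and Cyp2c69 had 174 and 112 against 130 to 164. The values divide reads by a library size factor, 1.92 and 1.26 in these CV males and 0.706 to 1.12 in GF males.

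Genes that serve or regulate these enzymes were read from lists of known partners and regulators. Of 11 electron transfer and heme partners, 10 rose in CV livers and none fell by limma, where 32.3% of all genes tested rose and 28.7% fell. Their median change was 1.14, against 0.07 over all genes, and the counts were 10 and 0 without CV male 3 also. Hmox2, a heme oxygenase, rose by 1.66 (limma adjusted p = 2.18e-06), Pgrmc1, a heme-binding partner of P450 enzymes, by 1.51 (adjusted p = 0.000103) and Por, the P450 reductase, by 1.14 (adjusted p = 0.000151). Alas1, the first enzyme of heme synthesis, was the exception at −0.52 ± 0.31 (adjusted p = 0.146). By sex 0 of the 11 passed limma and 2 had an unadjusted p under 0.05.

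Of 17 receptors and hepatocyte factors, 5 rose and 5 fell with CV, a share near that of all genes (32.3% and 28.7%), and by sex 0 passed limma and 2 had an unadjusted p under 0.05. The counts were again 5, 5 and 0 without CV male 3. Cebpa, a hepatocyte transcription factor, rose by 1.55 (limma adjusted p = 8.07e-06), the coactivator Ppargc1a changed by −2.36 (adjusted p = 4.86e-07) and Ahr, the aryl hydrocarbon receptor, by −0.90 (adjusted p = 0.000276). Nr1i3, the receptor CAR, changed by −0.28 (adjusted p = 0.364).

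Of 14 growth hormone and sex-bias regulators tested, 3 were lower in males by limma, against 0.433% of all genes, and 4 without CV male 3, against 0.662%. Cux2, a female-biased repressor, had 7.16, 3.99 and 7.09 in GF males and 374, 489 and 533 in GF females. In CV livers it had 0, 3.18 and 62.7 in the libraries labelled male and 60.6, 128 and 123 in females, so that CV male 3 lay with the females, and the difference was −5.01 ± 0.66 (limma adjusted p = 0.000665), or −5.83 without that library. Trim24 (−1.45, adjusted p = 0.00862) and the estrogen receptor gene Esr1 (−1.27, adjusted p = 0.0446) were the other 2, at −1.71 and −1.57 without it. With CV, 1 of the 14 rose and 4 fell, a share of falls near the 28.7% of all genes, and without CV male 3 1 rose and 5 fell. Among them Socs2, a growth hormone feedback inhibitor, changed by −2.14 (adjusted p = 0.00139).

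Of the 14 other Cyp2 genes, 8 were tested and 5 rose with CV, against 32.3% of all genes, and 2 were lower in males, against 0.433%. These were Cyp2b13, at −6.53 (limma adjusted p = 0.00587), and Cyp2b9, at −5.88 (adjusted p = 0.00484). They stood without CV male 3 at −8.12 and −7.15, and of the 8 genes 5 rose and 1 fell with CV while 1 was higher and 2 were lower in males. Across the 12 libraries the profile most like that of Cyp2a4 was that of Cyp3a41a (Pearson r = 0.978), then Sult3a1 (0.977) and Cyp2b9 (0.970). For Cyp2c69 the closest were A1bg (0.977), Sult3a1 (0.972) and Cyp3a41a (0.948), for Cyp2d9 they were Mup1 (0.982), Mup12 (0.981) and Mup7 (0.980), and for Cyp2j6 they were Prkcz (0.883), Ugdh (0.882) and Baat (0.837). These correlations are descriptions over 12 libraries that share the group structure and the scaling.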

How the data were processed

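RNA from snap-frozen livers of 12 mice was made into stranded mRNA libraries (Illumina TruSeq). Per the labels, the authors counted reads per gene with HTSeq 0.6.1p1 on GRCm38 and used DESeq2. The aligner, the read length and the handling of reads with several matches were not given in the sources used here. The deposited values are a normalised signal, the read counts divided by 1 size factor per library, because 100% of values became whole within 0.01 when multiplied by that factor, and this factor equalled the median-of-ratios factor over the 12512 genes with reads in every library. Groups follow the labels.

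Values were analysed as log2(value + 1) with limma 3.58.1 (R 4.3.3, trend in the prior variance), over genes with a mean value of at least 10, with group means for the 4 groups of 3 mice and a Benjamini-Hochberg threshold of 0.05. Differences are on that log2 scale and understate changes of low genes. Recovered reads were also tested with edgeR 4.0.16 and DESeq2 1.42.0. The limma step was tested on simulated data. Gene coordinates and lengths came from GENCODE M21 (GRCm38), which held 40254 of the 41128 gene identifiers. Paralog and promoter alignments used Biopython 1.88.

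Values in each library are given for the members of each subfamily with the 2 smallest adjusted p for condition, the 2 smallest for sex and the smallest for the interaction, and from the regulator lists up to 3 genes for each comparison were named. Nr1i3, Alas1, Cyp2c70, the members that did not pass and those named without CV male 3 were added after their values were seen. The members, lists and tests were chosen with earlier results of these data known. Replicate numbers are shared between groups. The deviations of same-numbered CV males and CV females correlated at 0.193, 0.118 and 0.173, and those of GF males and GF females at 0.0593, 0.403 and 0.0682. The remaining pairs of groups held negative values. Differently numbered libraries reached 0.386 (GF male 1 and GF female 3), so that these correlations do not show that the numbers pair mice. A replicate block was run as an alternative only. Alternatives covered the pseudocount, the filter, the scaling, the test, the replicate block, length and GC content, the mitochondrial share and each library in turn. The SE values come from limma and give the precision of an estimated difference. The SD values come from the libraries directly and describe spread between them. The limit of 3 reads for a count of 0 covers counting error only.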

Additional observations from a re-analysis of the deposited data

Results flagged for a closer look

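The change with conventionalization differed between the sexes in 2 members when the library labelled CV male 3 was left out, by limma's interaction term. For Cyp2a4 the male change minus the female change was −4.07 ± 0.60 (limma adjusted p = 0.0179), with both CV males below the 3 GF males and all 3 CV females above the 3 GF females. For Cyp2c69 it was −3.38 ± 0.57 (limma adjusted p = 0.0453), with the same arrangement of libraries. All 3 CV females lay above the 3 GF females in 4000 of 11782 genes tested. All 3 libraries labelled CV male lay below the 3 GF males in 2484, and the share without CV male 3 was not counted. The reads behind the male values overlapped in both members. With all libraries the same terms were −1.52 (adjusted p = 0.714) and −1.59 (adjusted p = 0.597). The part of the label of CV male 3 in this difference was not tested. Groups of 3 mice were too small for a test of single outlying libraries.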

How the results depend on the processing

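Main values are 17 members called for CV against GF over both sexes, 7 in males, 14 in females, 0 for the interaction, 3 by sex, 2 by sex in GF and 0 by sex in CV. Scaling to all reads gave 13 in males, 23 in females, 5 by sex, 9 by sex in GF and 3 by sex in CV. Of all 11782 genes that scaling called 2824 higher and 788 lower in males, and 5832 and 1119 in females. By sex it called 123 and 43, in GF 1349 and 44 and in CV 9 and 8. Scaling to reads outside the abundant and predicted loci gave 8 over both sexes, 2 in males and 8 in females. There 13.6% of all genes were higher and 48.4% lower over both sexes, 5.10% and 23.9% in males and 11.5% and 46.9% in females. The mitochondrial covariate gave 0 over both sexes, 0 in males, 0 in females, 0 by sex in GF and 1 by sex in CV. Of all 11782 genes, 0 passed over both sexes or in females, and 2 were higher and 1 lower in males. By sex in GF 4 were higher and 0 lower, and in CV 7 and 8. The covariate turned the sign of the condition change of Cyp2a5 (−0.0622), Cyp2c23 (−0.0425) and Cyp2j5 (−0.0566) and of the interaction of Cyp2j5 (0.272). DESeq2 gave 12 in males, 6 by sex in GF and 1 by sex in CV, and edgeR 1 by sex in CV. Of 22953 genes DESeq2 called 1928 higher and 2229 lower in males, 366 and 81 by sex in GF and 43 and 7 in CV. By sex in CV edgeR called 29 and 1 of 12555 genes. edgeR on genes with 1 or more reads gave 13 in males, 1 interaction, 7 by sex, 6 by sex in GF and 4 by sex in CV. That fit called 2102 higher and 2069 lower of 22953 genes in males, and 57 and 48 for the interaction. By sex it called 229 and 121, in GF 428 and 136 and in CV 106 and 55. Removing the length and GC trend gave 3 in males, where 13.95% of all genes were higher and 11.47% lower. An adjusted p under 0.01 gave 2 in males and 1 by sex in GF, and the share of all genes at that threshold was not counted. The cause of these shifts was not tested.

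Leaving out 1 library gave 16 to 19 over both sexes, 3 to 9 in males, 12 to 17 in females, 0 to 2 interactions, 3 to 7 by sex, 1 to 5 by sex in GF and 0 to 4 by sex in CV. CV male 3 set the highest values by sex, in GF (5) and in CV (4), and for the interaction (2). Without CV male 1 the interaction gave 1, Cyp2c67 at −2.10, and males gave 4. Of all 11782 genes that fit called 104 higher and 187 lower for the interaction, and 966 and 1217 in males. Without GF male 1 or GF male 3 males gave 3. All genes in males then gave 725 higher and 879 lower without GF male 1, and 984 and 1151 without GF male 3. By sex in GF, 4 were called without GF male 1 or GF female 2, and 1 without GF male 2, GF male 3, GF female 1 or GF female 3. Genes higher and lower in that comparison were 263 and 73 without GF male 1 and 640 and 76 without GF female 2. They were 38 and 11 without GF male 2, 54 and 22 without GF male 3, 66 and 14 without GF female 1 and 63 and 20 without GF female 3. The replicate block gave 18, 8, 15, 0, 3, 3 and 0 in the order of the main values. Of all 11782 genes it called 3853 higher and 3375 lower over both sexes, 1695 and 1771 in males and 3560 and 3070 in females. By sex it called 94 and 50, in GF 225 and 56 and in CV 7 and 1. With the length and GC trend removed the block gave 3 in males, where 1555 of 11731 genes were higher and 1305 lower. Of the tests of named members, 538 of 560 settings kept direction and side of the threshold. These members were chosen by their adjusted p in the same data. A test that kept its direction and passed in neither fit also counted as kept, so that the count is a description.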

Other observations

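Members under the test limit were still listed. Cyp2d11, with 65 reads in all, had normalised counts of 5.32 to 18.4 in the 6 GF libraries and 0.909 to 4.70 in the 6 CV libraries. These did not overlap, as in 15.7% of genes tested, but the reads behind them did. Size factors ran from 0.376 to 1.12 in GF and from 1.10 to 2.38 in CV libraries. Of the Cyp2d11 transcript, 26.9% is shared with Cyp2d10, which rose. DESeq2 on genes with any reads called Cyp2d11 lower in CV livers, as it did Cyp2j8, with 28 reads in all. It called 4598 of 22953 genes lower. Cyp2d12 had 75 reads and Cyp2a22 had 14, and neither separated the conditions.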
